A study of Homo sapiens with 6 samples.

Results

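The genes described here are 10 genes of the circadian clock, ARNTL, ARNTL2, CLOCK, NPAS2, PER2, PER3, CRY1, CRY2, NR1D2 and DBP, out of 24462 gene symbols with counts. They were chosen by name, and the choice was made with their measured values in this experiment known, so their difference between the cell lines is given as a description without a test. RNA was sequenced in 6 libraries from HCEC 1CT, an established and immortalized line of human colonic epithelial progenitor cells. In 3 libraries the cells were the parental line (1CT, labelled WT) and in 3 they were its APC-depleted version (1CT-A, labelled APC KD). Both lines were untreated and grew in the same medium with EGF, hydrocortisone, insulin, transferrin, sodium selenite and serum. APC, a scaffold of the complex that marks β-catenin for breakdown, is a colon tumour suppressor, and the experiment asks what its loss does to gene expression in these cells. The construct behind the depletion, any control vector in 1CT, whether 1CT-A is a single clone, and the hour at which cells were harvested are not given in the sources used here.

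The circadian clock is a feedback loop of transcription that runs in almost every cell. CLOCK or its relative NPAS2 pairs with ARNTL (also called BMAL1) or ARNTL2 (BMAL2), and the pair binds E-box sequences and switches on the PER and CRY genes, whose proteins return to the nucleus and silence the pair. A further loop runs through the NR1D repressors and the ROR activators, which act on the ARNTL promoter through RORE sequences, and through DBP and its relatives, which act on D-boxes. In intestinal epithelium the clock is known for its part in the daily timing of cell division and of nutrient uptake. Whether the cells of a culture shared a phase of this cycle at harvest is not given, and there was no time course. Levels are therefore described here, and no rhythm can be read from them.

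E-boxes, D-boxes and ROREs are short sequences, and they were looked for near the starts of the 10 genes. RefSeq (GRCh38.p14) gives 15 promoter windows for the 10 genes, each from 250 bases before a transcription start to 50 bases after it. They were searched on both strands for the E-box CACGTG, its variant CACGTT called the E′-box, the D-box as TTATGTAA or TTACGTAA, the RORE core AGGTCA, and the TCF/LEF motif CTTTGAT or CTTTGAA through which β-catenin partners bind. Of 35116 windows of the same length, 7.26% held the E-box, 5.34% the E′-box, 1.01% the D-box, 13.8% the RORE core and 6.86% the TCF/LEF motif. Below are the windows of ARNTL2, which showed the largest difference between the lines, of ARNTL, its close relative, of PER2, which showed the second largest, and of NR1D2, where E-boxes were found. Capitals mark a motif on either strand, and the ARNTL2 window held none of the 5 motifs.
ARNTL2, chr12:27332586-27332885, plus strand: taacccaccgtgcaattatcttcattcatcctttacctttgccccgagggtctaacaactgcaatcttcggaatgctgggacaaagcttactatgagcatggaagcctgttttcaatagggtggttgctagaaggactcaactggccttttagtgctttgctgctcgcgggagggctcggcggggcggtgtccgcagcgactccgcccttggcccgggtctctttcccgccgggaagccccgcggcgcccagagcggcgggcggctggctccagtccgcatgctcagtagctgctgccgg
ARNTL, chr11:13277540-13277839, plus strand, the first of 2 windows: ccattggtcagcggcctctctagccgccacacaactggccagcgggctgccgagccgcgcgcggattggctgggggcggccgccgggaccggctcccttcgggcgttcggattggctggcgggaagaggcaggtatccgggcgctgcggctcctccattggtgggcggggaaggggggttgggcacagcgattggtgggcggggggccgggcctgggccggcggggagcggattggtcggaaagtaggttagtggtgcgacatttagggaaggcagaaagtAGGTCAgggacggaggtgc
PER2, chr2:238288561-238288860, minus strand: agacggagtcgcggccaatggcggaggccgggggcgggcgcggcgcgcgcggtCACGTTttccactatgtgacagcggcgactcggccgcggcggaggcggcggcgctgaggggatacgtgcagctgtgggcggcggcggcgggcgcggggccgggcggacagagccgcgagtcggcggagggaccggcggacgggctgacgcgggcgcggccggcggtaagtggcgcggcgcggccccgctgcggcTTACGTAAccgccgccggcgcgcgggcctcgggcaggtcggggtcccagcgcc
NR1D2, chr3:23945871-23946170, plus strand, the second of 2 windows: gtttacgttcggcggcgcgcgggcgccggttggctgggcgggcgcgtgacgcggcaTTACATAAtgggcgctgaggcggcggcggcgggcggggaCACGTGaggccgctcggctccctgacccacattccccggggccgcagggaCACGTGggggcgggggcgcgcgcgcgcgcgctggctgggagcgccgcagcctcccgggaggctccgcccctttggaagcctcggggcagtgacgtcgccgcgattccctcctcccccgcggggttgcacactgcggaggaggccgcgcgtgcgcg

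The NR1D2 window held 2 E-boxes, which began 155 and 105 bases before the start, and a D-box 194 bases before it. PER2 held an E′-box 197 bases before the start and a D-box that began 3 bases before it and ran across it. The RORE core of ARNTL lay after the start, from base 32 of the transcript. Of the windows not printed, CLOCK, CRY1 and CRY2 held an E′-box, PER3 held a D-box, and both CRY2 windows held the RORE core. The windows of NPAS2 and DBP held none of the motifs, and the TCF/LEF motif was found in 0 of 15 windows. No motif overlapped another. The median GC content of the 15 windows was 71.3%, from 46.3% to 81.0%, against 58.7% over all RefSeq windows. The ARNTL2 window had 60.3% GC and 22 CpG dinucleotides. A match is only a run of letters, and none of these sequences was measured for binding here.

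The libraries held 7788679 to 8452258 counts in 1CT and 11158108 to 12602988 in 1CT-A, and levels are given as CPM, counts per 1000000 counts of the library. The limit below which a gene counts as not visible, 3 counts, was 0.355 to 0.385 CPM for 1CT libraries and 0.238 to 0.269 CPM for those of 1CT-A, and every one of the 10 genes had more in every library. APC itself fell from 46.6 ± 2.75 to 31.9 ± 2.21 CPM (SD, n = 3 each), a log2 change of -0.58 (SE 0.09, edgeR adjusted p = 0.000176), in the direction the labels give. The lines also differed in how many symbols had a count, 16393 to 16635 in 1CT and 15653 to 15769 in the deeper 1CT-A libraries. Together, 399 olfactory receptor genes took 15.8 ± 2.06 CPM in 1CT and 5.93 ± 0.333 CPM in 1CT-A (SD, n = 3 each). What this means for clock genes with low counts was not tested. The library 1CT replicate 3 stood apart from its group. Compared with the other two 1CT libraries it gave 7.54 and 9.00 for the chi-square per degree of freedom of the counts, where counting noise alone gives 1 and the other replicate pairs had 3.11 to 4.56. Of 9 colon epithelial markers EPCAM, VIL1 and CDX1 were at 0 in all libraries, KRT19 had 20 to 34 counts in 1CT and 0 in 1CT-A, and the summed markers took 13.4 to 17.4 CPM of a 1CT library and 3.23 to 7.20 CPM of a 1CT-A library. Most of that sum was KRT18, which fell from 11.2 ± 1.72 to 5.06 ± 1.90 CPM (SD, n = 3 each, edgeR adjusted p = 0.000882). Only KRT18 and KRT19 of the 9 had counts enough to be tested, and both were called lower. The 7 mesenchymal markers summed to 44536 to 52641 CPM in the 1CT libraries and to 21767 to 23177 CPM in those of 1CT-A. Most of that sum was FN1, which fell from 44241 ± 3619 to 18128 ± 829 CPM (SD, n = 3 each, edgeR adjusted p = 1.05e-08). Of the 7, 5 were called lower, beside 26.0% of all genes tested, and 1 higher. COL1A1, ACTA2 and PDGFRB also fell without overlap (log2 -0.59, -1.32 and -0.98, edgeR adjusted p = 2.18e-05, 0.00114 and 4.13e-05). VIM was called lower (log2 -0.20, edgeR adjusted p = 0.0386) although its CPM overlapped between the lines. COL1A2 overlapped and was not called. Only COL3A1 rose, from 47.8 ± 17.8 to 253 ± 15.0 CPM (edgeR adjusted p = 2.7e-07). The 5 blood and vessel markers, with PTPRC, CD3E and CDH5 at 0, summed to 11.0 to 14.4 and 8.49 to 10.2 CPM, almost all of it CD68. The part of these marker differences in the clock gene values was not tested. In bulk RNA a smaller share of cells with a transcript and less of it per cell cannot be told apart.

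Among the 10 clock genes the activator ARNTL2 and the repressor PER2 differed most between the lines. Both were higher in 1CT-A, ARNTL2 by 3.08-fold and PER2 by 2.26-fold, and NPAS2, PER3 and CRY1 were also higher in every 1CT-A library than in every 1CT library, by 1.32-fold to 1.43-fold. ARNTL, CLOCK, CRY2, NR1D2 and DBP overlapped between the lines, with folds from 0.921 to 1.14. In the plot of CPM by library, ARNTL2 is the member with the widest gap relative to its replicate spread.

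**Figure D1:**
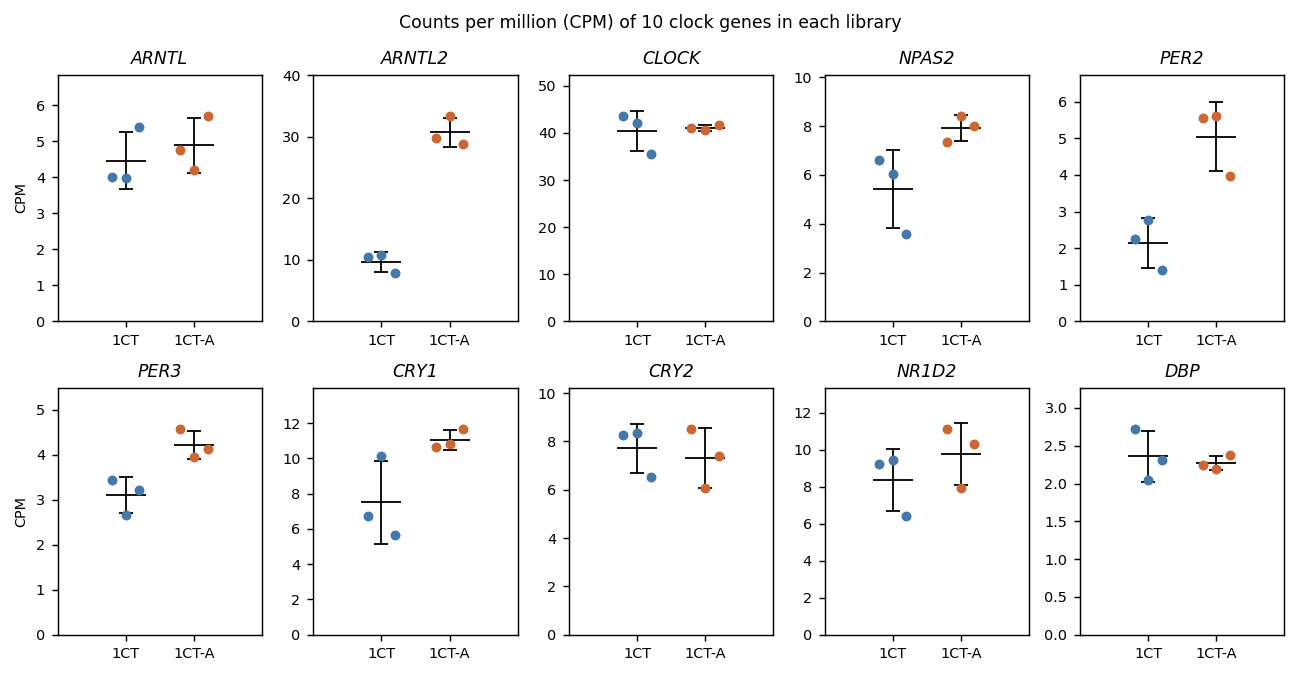
CPM (y axis, from 0, with its own scale in each panel) of the 10 clock genes in 3 libraries of 1CT (blue) and 3 of 1CT-A (orange), replicates 1 to 3 from left to right. Points are libraries, the long bar is the mean and the whiskers are 1 SD; ARNTL2 lies between 7.83 and 10.7 CPM in 1CT and between 28.9 and 33.4 CPM in 1CT-A.

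Of the activating arm, ARNTL2 is a paralog of ARNTL that can take its place beside CLOCK or NPAS2. Its counts were 88, 89 and 61 in 1CT replicates 1 to 3 and 333, 381 and 364 in 1CT-A replicates 1 to 3. The corresponding levels were 10.4, 10.7 and 7.83 CPM in 1CT and 29.8, 33.4 and 28.9 CPM in 1CT-A. The lowest 1CT-A library was thus far above the highest 1CT library, and 1CT replicate 3 was the lowest of all. The means were 9.66 ± 1.59 and 30.7 ± 2.40 CPM (SD, n = 3 each), and the fitted fold was 3.08 with a 95% interval from 2.53 to 3.76. On the log2 scale this was 1.62 (SE 0.13), and 161 of 12514 genes tested (1.29%) had a higher log2 fold change. The gene lies on the plus strand of chromosome 12, and its antisense gene ARNTL2-AS1, which overlaps its end, had 1, 0 and 1 counts in 1CT and 1, 2 and 6 in 1CT-A.

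ARNTL, the main partner of CLOCK, did not follow its relative. It had 34, 33 and 42 counts in 1CT and 53, 48 and 72 in 1CT-A. In CPM these were 4.02, 3.98 and 5.39 against 4.75, 4.21 and 5.71, and the ranges overlapped. The means were 4.47 ± 0.802 and 4.89 ± 0.760 CPM (SD, n = 3 each), with a fold of 1.07 and a 95% interval from 0.771 to 1.49. The SD over the 3 libraries was close to what counting alone gives, 0.741 CPM in 1CT and 0.645 CPM in 1CT-A. A difference of any size within that interval is not excluded by these libraries.

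CLOCK, a partner of both, had 369, 349 and 277 counts in 1CT and 457, 462 and 526 in 1CT-A. Its levels were 43.7, 42.1 and 35.6 CPM in 1CT and 41.0, 40.6 and 41.7 CPM in 1CT-A, so all 3 of the 1CT-A values lay inside the 1CT range. Its fold was 0.988 with a 95% interval from 0.860 to 1.14, the narrowest of the 10 genes. TMEM165 overlaps the end of CLOCK on the other strand and had 212 to 276 counts in 1CT and 341 to 432 in 1CT-A. Whether the counting used strand is not given, so CLOCK counts may hold reads of that gene.

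NPAS2, which can replace CLOCK, had 56, 50 and 28 counts in 1CT and 82, 96 and 101 in 1CT-A. In CPM it read 6.63, 6.04 and 3.59 in 1CT and 7.35, 8.43 and 8.01 in 1CT-A. The lines did not overlap, but the gap between the highest 1CT and the lowest 1CT-A library was small, and 1CT replicate 3 was far below the other two. The means were 5.42 ± 1.61 and 7.93 ± 0.543 CPM (SD, n = 3 each), with a fold of 1.42 and a 95% interval from 1.04 to 1.93. Without 1CT replicate 3 the log2 difference was 0.30 in place of 0.50, and without 1CT replicate 1 it was 0.67.

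Among the repressors, PER2 is a core negative element whose protein carries CRY into the nucleus. It had 19, 23 and 11 counts in 1CT and 62, 64 and 50 in 1CT-A. The levels were 2.25, 2.78 and 1.41 CPM in 1CT and 5.56, 5.62 and 3.97 CPM in 1CT-A. Every 1CT-A library was above every 1CT library, with replicate 3 the lowest in each line. The means were 2.15 ± 0.688 and 5.05 ± 0.936 CPM (SD, n = 3 each), the fold was 2.26 and its 95% interval ran from 1.50 to 3.41. The log2 difference of 1.18 (SE 0.27) lay between 0.98 and 1.40 when single libraries were dropped, and 2.84% of the genes tested had a higher one.

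PER3, a PER relative with a lesser part in keeping the rhythm, had 29, 22 and 25 counts in 1CT and 51, 45 and 52 in 1CT-A. These were 3.43, 2.66 and 3.21 CPM against 4.57, 3.95 and 4.13 CPM, with no overlap between the lines. The means were 3.10 ± 0.399 and 4.22 ± 0.320 CPM (SD, n = 3 each), and the fold of 1.32 had a 95% interval from 0.947 to 1.85 that took in 1. The replicate SD was below the SD that counting alone gives for such counts, 0.616 CPM in 1CT. UTS2, on the other strand at the end of PER3, had 0 counts in all libraries.

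CRY1 is the stronger repressor of the CRY pair. It had 57, 84 and 44 counts in 1CT and 119, 123 and 147 in 1CT-A. In CPM these were 6.74, 10.1 and 5.65 in 1CT and 10.7, 10.8 and 11.7 in 1CT-A. The lines did not overlap, although 1CT replicate 2 came close to the 1CT-A libraries. The means were 7.51 ± 2.34 and 11.0 ± 0.543 CPM (SD, n = 3 each), and the 1CT spread was wider than the 0.957 CPM that counting gives. The fold was 1.43 with a 95% interval from 1.08 to 1.90, and the log2 difference of 0.51 moved to 0.79 without 1CT replicate 2 and to 0.37 without 1CT replicate 3.

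CRY2, the other cryptochrome, had 70, 69 and 51 counts in 1CT and 95, 69 and 93 in 1CT-A. Its levels were 8.28, 8.33 and 6.55 CPM against 8.51, 6.06 and 7.38 CPM, and both the highest and the lowest value were in 1CT-A. The means of 7.72 ± 1.02 and 7.32 ± 1.23 CPM (SD, n = 3 each) gave a fold of 0.921 with a 95% interval from 0.702 to 1.21.

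NR1D2 (REV-ERBβ), a repressor of ARNTL in the second loop, had 78, 78 and 50 counts in 1CT and 124, 90 and 130 in 1CT-A. The levels were 9.23, 9.42 and 6.42 CPM in 1CT and 11.1, 7.90 and 10.3 CPM in 1CT-A, and they overlapped because 1CT-A replicate 2 was below 2 of the 1CT libraries. The means were 8.36 ± 1.68 and 9.78 ± 1.67 CPM (SD, n = 3 each), with a fold of 1.14 and a 95% interval from 0.861 to 1.50.

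DBP, an output factor that binds D-boxes and is a direct target of the CLOCK pair, had 23, 17 and 18 counts in 1CT and 25, 25 and 30 in 1CT-A. These were 2.72, 2.05 and 2.31 CPM against 2.24, 2.19 and 2.38 CPM, with the 1CT-A values inside the 1CT range. The means were 2.36 ± 0.337 and 2.27 ± 0.0969 CPM (SD, n = 3 each). The fold was 0.937, and its 95% interval from 0.630 to 1.39 was, on the log2 scale, among the widest of the 10 genes. SPHK2 overlaps the end of DBP on the other strand and had 58 to 84 counts in 1CT and 83 to 124 in 1CT-A, so DBP counts are uncertain in the same way as those of CLOCK.

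Counted together, 5 of the 10 genes had no overlap between the lines with 1CT-A above, where 31.8% of all 12514 genes tested did, and 0 of 10 had none with 1CT-A below, where 27.9% of all genes did. As a description of the edgeR quasi-likelihood fit and not as a test of these genes, 3 of the 10 (ARNTL2, PER2 and CRY1) lay past an adjusted p of 0.05, all higher in 1CT-A. CRY1 was not past it with DESeq2, nor in edgeR when any single library other than 1CT replicate 2 was dropped. Of all genes tested, 51.0% were past it in either direction, 25.0% higher and 26.0% lower. The median log2 fold change of the 10 genes was 0.29 and that of all genes -0.01. These counts are given without a reading, since the genes were selected on this contrast.

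Relatives in the same library share its depth and scaling, so their ratio shows whether they moved apart. The counts of ARNTL2 were 2.59, 2.70 and 1.45 times those of ARNTL in 1CT and 6.28, 7.94 and 5.06 times in 1CT-A. The geometric means differed by 2.92-fold and no library overlapped. NPAS2 was at 0.152, 0.143 and 0.101 of CLOCK in 1CT and at 0.179, 0.208 and 0.192 in 1CT-A, a 1.48-fold difference without overlap. The ratio of CRY1 to CRY2 was 0.814, 1.22 and 0.863 in 1CT and 1.25, 1.78 and 1.58 in 1CT-A, which was 1.60-fold higher with the closest libraries nearly touching. PER2 over PER3 was 0.655, 1.05 and 0.440 in 1CT and 1.22, 1.42 and 0.962 in 1CT-A, 1.77-fold higher, and here the lines overlapped. Thus in the activator pairs and the CRY pair the member listed second, ARNTL, CLOCK or CRY2, was the one whose CPM overlapped between the lines. These ratios compare libraries and not the amounts of the gene products, and they use the contrast on which the genes were chosen.

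**Figure D2:**
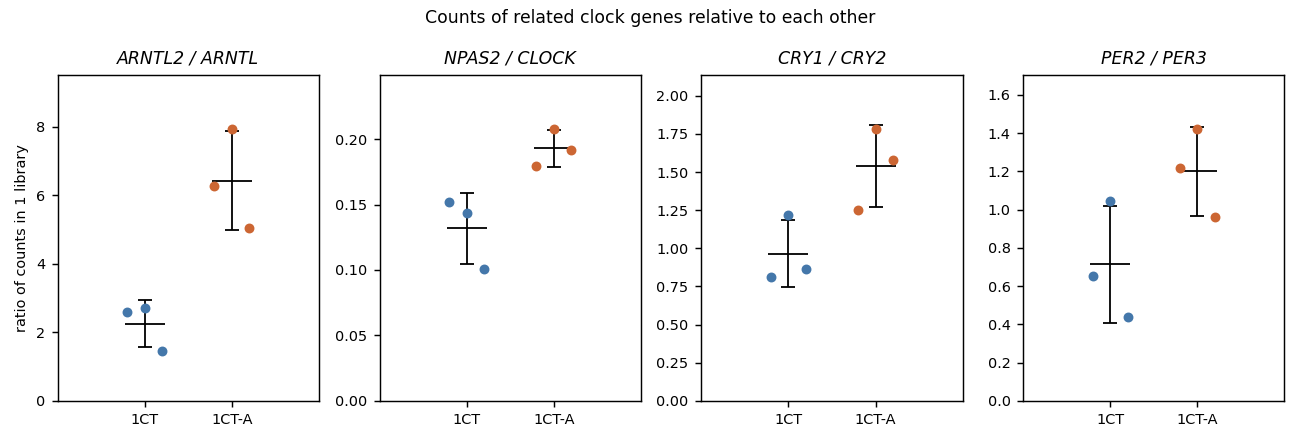
Counts of 1 clock gene divided by those of its relative in the same library (y axis, from 0, no unit), for 3 libraries of 1CT (blue) and 3 of 1CT-A (orange), with the mean and 1 SD. The ratio of ARNTL2 to ARNTL was 1.45 to 2.70 in 1CT and 5.06 to 7.94 in 1CT-A, and only the ratio of PER2 to PER3 overlaps between the lines.

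The pattern of the 10 genes across the libraries was compared with that of ARNTL2 as the root mean square difference of log2(CPM + 0.5). Each gene was centred on its mean over the 6 libraries, and CPM were here scaled by the TMM factors of the libraries. PER2 was the nearest at 0.31, followed by NPAS2 at 0.56 and CRY1 at 0.56, and CRY2 was the farthest at 0.87. Among all 8223 genes compared, which were those averaging 10 CPM or more, the nearest to ARNTL2 were UHRF1 at 0.0585, CDCA8 at 0.103, PTGER2 at 0.104, PXK at 0.105 and TFPI2 at 0.106. The distances of the 10 clock genes were taken without that limit. PER2 and NPAS2 were below 10 CPM in every library, where counting noise adds more to a distance, so the 2 sets are not alike. UHRF1 went from 30.0 ± 3.92 to 96.0 ± 4.35 CPM (SD, n = 3 each). The likeness rests on 6 libraries in 2 groups, so any gene with about the same fold comes out near. The 7 genes lowest in 1CT replicate 3 among the 1CT libraries were ARNTL2, CLOCK, NPAS2, PER2, CRY1, CRY2 and NR1D2, and ARNTL was the only one highest there, while 40.7% of all genes tested were lowest in that library.

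**Figure D3:**
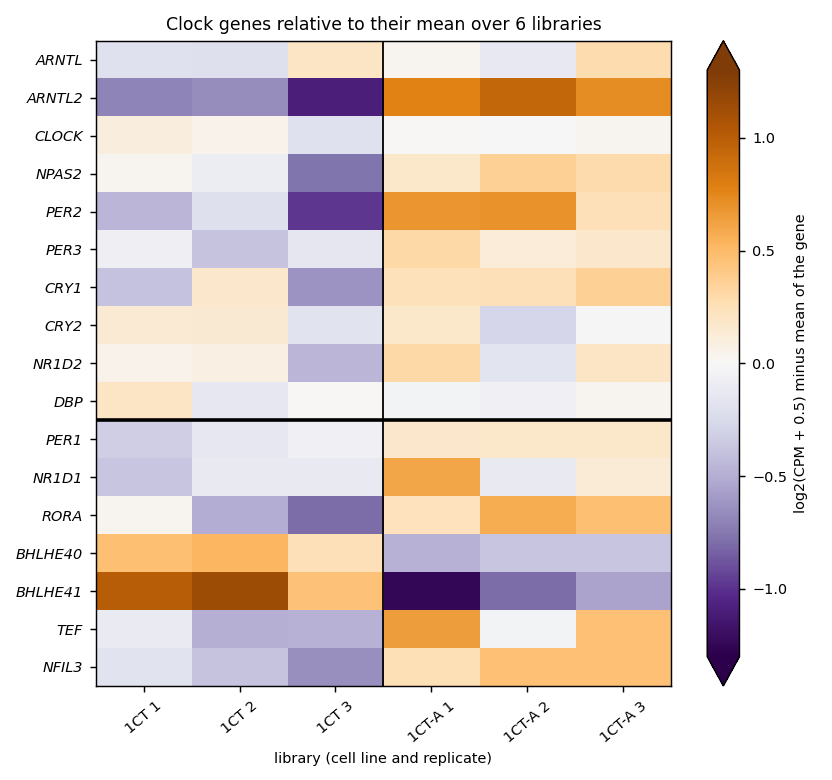
Colour gives log2(CPM + 0.5) minus the mean of the gene over 6 libraries (orange above, purple below), for the 10 clock genes above the line and 7 further clock genes below it; columns are libraries by cell line and replicate. ARNTL2 runs from -1.09 in 1CT replicate 3 to 0.94 in 1CT-A replicate 2, and BHLHE41 runs the other way, from 1.14 in 1CT replicate 2 to -1.25 in 1CT-A replicate 1.

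Other genes of the clock, its output genes and the bHLH-PAS relatives of the activators were read from 6 lists of 51 further genes, which were not picked for their values but were written with earlier results of these data known. Of these, 43 were tested, 13 rose and 14 fell in 1CT-A (edgeR quasi-likelihood test, adjusted p under 0.05 over 12514 genes), and 16 did not pass. Without the 12 bHLH-PAS relatives, which are not clock genes, 34 of 39 were tested, 12 rose and 10 fell. The median log2 fold change of the 43 was -0.09, and that of the 34 was 0.19. The share past the test was 62.8% of the 43 and 64.7% of the 34, beside 51.0% of all genes.

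Of 8 other transcription factors of the loop 5 were tested, and 2 rose and 2 fell. The share past the test was 80% of only 5 genes, beside 51.0% of all genes tested. PER1, the remaining PER gene, known for its quick response to serum and glucocorticoids, rose from 61.6 ± 5.86 to 78.2 ± 0.160 CPM (SD, n = 3 each), a log2 change of 0.31 (SE 0.09, edgeR adjusted p = 0.0104). Without 1CT replicate 1 it no longer passed (0.23, adjusted p = 0.054). PER2 was 0.0407, 0.0441 and 0.0212 of PER1 in 1CT and 0.0712, 0.0717 and 0.0507 in 1CT-A, 1.90-fold higher without overlap. RORA, an activator of ARNTL, had 42, 27 and 20 counts in 1CT and 64, 85 and 87 in 1CT-A and rose 1.80-fold (log2 0.85, SE 0.24, edgeR adjusted p = 0.00944). NR1D1, the relative of NR1D2, had 13, 16 and 15 counts against 39, 22 and 30 and did not pass the test (log2 0.49, SE 0.31, edgeR adjusted p = 0.211). BHLHE40 and BHLHE41 (DEC1 and DEC2), which compete with the CLOCK pair for E-boxes, both fell. BHLHE40 had 54, 55 and 42 counts in 1CT and 34, 38 and 42 in the deeper 1CT-A libraries, or 6.14 ± 0.660 against 3.24 ± 0.166 CPM, a log2 change of -0.96 (SE 0.20, edgeR adjusted p = 0.00134). BHLHE41 went from 34, 37 and 20 counts to 5, 9 and 13 and was 4.90-fold lower (log2 -2.29, SE 0.35, edgeR adjusted p = 0.000137). RORB was at 0 in every library, and CIART had at most 6 counts.

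The partners of DBP on D-boxes were TEF, an activator like DBP, and NFIL3, which represses through the same sequence. NFIL3 had 117, 99 and 77 counts in 1CT and 211, 249 and 275 in 1CT-A and rose 1.70-fold (log2 0.77, SE 0.14, edgeR adjusted p = 0.000445). TEF had 28, 20 and 19 counts against 66, 40 and 65 and rose 1.73-fold (log2 0.79, SE 0.26, edgeR adjusted p = 0.023), where DBP itself overlapped between the lines. The TEF call did not hold with DESeq2 (adjusted p = 0.0662), nor in edgeR without 1CT replicate 2 (adjusted p = 0.0701), 1CT-A replicate 1 (0.0958) or 1CT-A replicate 3 (0.0678). HLF, the remaining activator, had at most 2 counts in any library.

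Kinases and ligases that set the lifetime of PER and CRY proteins were tested for 11 of 12 genes. Of these 2 rose, 4 fell and 5 did not pass, and the log2 fold change was positive for 6 and negative for 5. The share past the test was 54.5% of the 11, near the 51.0% of all genes tested. CSNK1D, a kinase that marks PER for breakdown, fell (log2 -0.26, edgeR adjusted p = 0.0198), as did CSNK1A1 (-0.30, 0.00636) and the ligase parts BTRC (-0.51, 0.00219) and SKP1 (-0.46, 5.1e-05). The kinases CSNK1E (log2 0.22, edgeR adjusted p = 0.111) and GSK3B (0.12, 0.411) did not pass. The deubiquitinases USP2 (log2 1.45, SE 0.41, edgeR adjusted p = 0.00956) and USP7 (0.22, 0.0161) rose, USP2 from only 5, 4 and 6 counts to 17, 27 and 17. The CSNK1D call was lost without 1CT replicate 3 (adjusted p = 0.0533) and without any single 1CT-A library (0.0649, 0.0683 and 0.0569 for replicates 1 to 3) and without a filter on low counts (0.0507), USP7 without 1CT-A replicate 1 (0.0735), and USP2 with DESeq2 (0.0599).

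Of 10 co-regulators 4 rose and 2 fell, so 60% were past the test beside 51.0% of all genes tested. Those that rose were SIRT1, a deacetylase that binds CLOCK (log2 0.56, edgeR adjusted p = 0.00888), and the PER-binding proteins NONO (0.43, 0.000164), SFPQ (0.72, 6.46e-07) and WDR5 (0.58, 2.28e-05). The histone-modifying cofactors EP300 (-0.34, 0.0292) and KDM5A (-0.28, 0.00702) fell. EP300 no longer passed with DESeq2 (adjusted p = 0.123), without the filter (0.07) or without 1CT replicate 1 (0.0927), 1CT replicate 2 (0.0696), 1CT-A replicate 2 (0.12) or 1CT-A replicate 3 (0.0781). Of 6 genes known as clock outputs, NAMPT, which makes NAD+, rose 1.78-fold (log2 0.83, edgeR adjusted p = 5.56e-05) and the cell cycle kinase WEE1 rose 1.85-fold (0.89, 0.000237). PPARA, a receptor for fatty acids, fell by 0.47 on the log2 scale (edgeR adjusted p = 0.0125, or 0.0506 without 1CT-A replicate 3). Of the 6 outputs 2 rose, 2 fell and 2 did not pass, with a median log2 fold change of -0.27. The share past the test was 66.7%, beside 51.0% of all genes tested. These outputs thus moved in both directions, while DBP overlapped between the lines.

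ARNTL, ARNTL2, CLOCK and NPAS2 belong to the bHLH-PAS family, whose other members sense oxygen, foreign chemicals or development. Of 12 relatives 9 were tested, 1 rose and 4 fell, and their median log2 fold change was -0.23. The share past the test was 55.6% of the 9, near the 51.0% of all genes tested. ARNTL, ARNTL2, CLOCK and NPAS2 had 0.10, 1.62, -0.02 and 0.50, and they were chosen with these values known. ARNT, the general partner of the family, rose (log2 0.34, SE 0.08, edgeR adjusted p = 0.00448). NPAS1, a neuronal relative of NPAS2, had 113, 121 and 180 counts in 1CT and 5, 5 and 6 in 1CT-A, or 17.0 ± 5.30 against 0.454 ± 0.0194 CPM. It was 37.4-fold lower (log2 -5.22, SE 0.32, edgeR adjusted p = 3.91e-08). ARNT2 had 43, 53 and 42 counts against 23, 33 and 41 and fell 2.10-fold (log2 -1.07, SE 0.23, edgeR adjusted p = 0.00183). HIF3A fell by 1.32 on the log2 scale (SE 0.28, edgeR adjusted p = 0.00157), and HIF1A by 0.23 (adjusted p = 0.0127), a call lost without the filter (0.0505), 1CT replicate 1 (0.0695) or 1CT-A replicate 3 (0.0652).

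**Figure D4:**
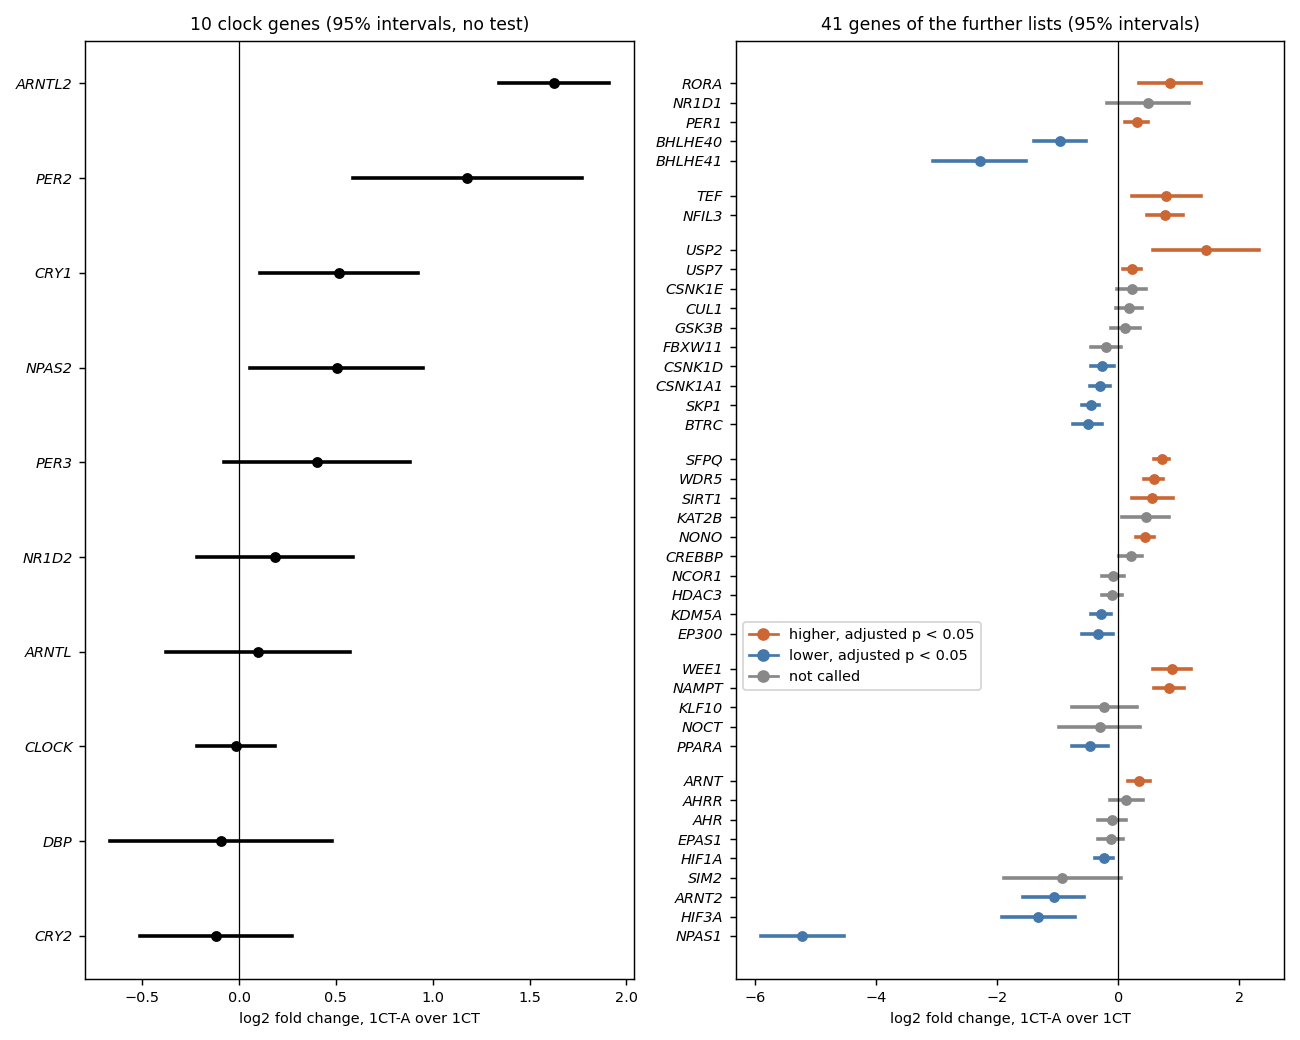
Log2 fold change of 1CT-A over 1CT with its 95% interval (x axis) for the 10 clock genes (left, black, given without a test) and for 41 of the 43 tested genes of the 6 further lists (right, orange higher, blue lower, grey not called at an edgeR adjusted p of 0.05), ordered within each list. ARNTL2 at 1.62 and PER2 at 1.18 stand highest on the left, and NPAS1 at -5.22 stands lowest on the right.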

How the data were processed

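Per the labels, total RNA of 1CT and 1CT-A cells was taken with Trizol and made into QuantSeq 3′ libraries, which count the ends of poly(A) transcripts. The study's methods differ, naming another extraction kit and a cDNA microarray beside RNA sequencing; the files hold whole-number counts, and the labels were followed. The authors deposited raw counts per gene symbol, 1 file per library, without normalization or pooling. The submitters' processing notes name Bowtie2, edgeR and the build hg19. Versions, the annotation, the counting program and its use of strand are not given in the sources used here. The libraries are separate samples by their labels, but nothing says that they came from separate cultures started apart, so p-values measure the spread between these samples, which may be technical.

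Each of the 25737 entries was read, and the counts of 286 symbols entered repeatedly were added together (no clock gene described here was among them). CPM are counts per 1000000 counts of the library. Differences come from edgeR 4.0.16 in R 4.3.3, with TMM factors (0.976 to 1.02), a filterByExpr minimum of 10 counts, and the quasi-likelihood test on 3 against 3 libraries. P-values were adjusted by Benjamini-Hochberg over 12514 genes, with all 10 clock genes among them. Folds are TMM-scaled, so they differ slightly from ratios of mean CPM. Intervals are 95% intervals of the fit. The steps were tested on simulated data.

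The clock genes, the 6 further lists and the markers were chosen with earlier results of these data known. Named by rule were every clock gene described, PER1, NR1D1, RORA, BHLHE40, BHLHE41, TEF and NFIL3, any listed gene called with an absolute log2 fold change of at least 1, APC, and the 5 genes nearest to ARNTL2. The other called genes of the lists, CSNK1E, GSK3B, the markers and the overlapping genes were named after their values were seen. Some genes of the lists are counted but not reported by name here. Promoter sequences come from RefSeq GRCh38.p14 and gene overlaps from GENCODE v44 on GRCh38, not from the build of the counts, so coordinates do not describe the counting. All 10 genes matched both, ARNTL and ARNTL2 as BMAL1 and BMAL2. Alternatives were no filter, a stricter filter of 10 counts in each library, scaling by library size only or by DESeq2 size factors, DESeq2 1.42.0 itself, limma-voom (limma 3.58.1), an adjusted p of 0.01, a replicate block, and dropping single libraries. The labels number the replicates of both lines 1 to 3, but same-numbered libraries did not deviate together (correlations of -0.15, 0.21 and -0.13 over 8231 genes), so the main test had no block.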

Additional observations from a re-analysis of the deposited data

How the results depend on the processing

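The counts of calls stayed within 1.5 times of their value under every alternative run. Genes called numbered 6388, from 4671 at an adjusted p of 0.01 to 7238 without a filter, and 5364 to 6551 with a library left out. The genes of the 6 further lists called, bHLH-PAS relatives included, ranged from 10 to 15 higher and 10 to 14 lower. Of the 10 clock genes, 2 to 4 lay past an adjusted p of 0.05: ARNTL2 and PER2 in each alternative, CRY1 not with DESeq2 nor with any single library left out other than 1CT replicate 2, and NPAS2 in addition with library size only, without a filter, with limma-voom and without 1CT replicate 1. These 10 genes were chosen on this contrast, so the counts past the threshold describe the fits and are no test of the genes. Their log2 fold changes kept their sign except for ARNTL, CRY2 and DBP with 1 library left out and for CLOCK, which ran from -0.08 to 0.04. ARNTL2 ran from 1.51 to 1.71. With the replicate block, 6091 genes were called, 3 of the 10 clock genes and 13 genes of the 6 lists higher and 14 lower, so the pairing by number changed none of these counts by over 1.5 times. Low counts limit PER2, PER3, ARNTL and DBP, which had 11 to 42 counts in a 1CT library.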
